A study of Mus musculus with 4 samples.

Results

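The small leucine-rich proteoglycans were followed in mammary fat pad (MFP) RNA as 10 genes, Dcn, Lum, Bgn, Fmod, Ogn, Prelp, Aspn, Omd, Kera and Podn, each taken as the row of the count table that carries its symbol. They are 10 of 55487 genes in the table, and all 10 were among the 22485 genes that passed the filter on low counts. Whole MFP of untreated female c57bl/6j mice was sampled at 14 months (aged MFP) and at 8 weeks (young MFP), with 2 biological replicates at each age and no genetic change named in the labels. The study used the MFP as an adipocyte-rich site in mice of both ages, and the comparison of aged with young MFP asks how the RNA of that tissue differs with age. The tissue was lysed whole, so a library mixes the RNA of all cells in the pad, and fewer cells of a type cannot be told apart from less RNA per cell.

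Small leucine-rich proteoglycans are secreted proteins of the extracellular matrix. Each has a core of leucine-rich repeats that curves around its ligands, and most carry chains of chondroitin, dermatan or keratan sulfate. Many bind collagen fibrils and set fibril spacing and thickness, and several bind growth factors such as TGF-beta or act on receptors at the cell surface. In fat they are made mainly by fibroblasts and stromal progenitors. The family is divided into classes by sequence, and the members below are grouped by class.

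The libraries held 68803304 to 98402403 counts on genes, and 3 counts, taken as the smallest number told from 0, correspond to 0.0337 to 0.0407 CPM (the count as a share of the library total, per 1000000 counts, with totals scaled by the TMM method of edgeR). Young replicate 1 stood apart: its root mean square difference in log2(CPM + 1) from the other libraries was 0.736 to 0.831, against 0.391 to 0.536 among the other 3. Its 6 B and T cell markers summed to 498 CPM, against 6.04 and 51.5 CPM in aged replicates 1 and 2 and 3.28 CPM in young replicate 2. The 8 skeletal muscle markers, all higher in both aged than in both young libraries, summed to 15935 and 31220 CPM in aged and 4598 and 7257 CPM in young MFP. The 8 adipocyte markers were at 10640 and 8653 CPM in aged and 6630 and 7043 CPM in young MFP, so the labelled fat tissue was present in each library. The part of these differences in the results below was not tested. Dcn, Lum, Fmod and Podn are also given with young replicate 1 left out.

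Of the 10 members, 7 (Dcn, Ogn, Prelp, Omd, Podn, Bgn and Lum) were higher in both aged than in both young libraries, by 0.63 to 1.49 on the log2 scale. Kera was lower in both aged libraries, and Aspn and Fmod overlapped between the ages. Over all genes tested, 23.3% had both aged above both young libraries and 22.8% had both below. In the quasi-likelihood test of edgeR, adjusted by Benjamini-Hochberg over all genes, no member reached an adjusted p under 0.05, where the share of all genes called was 0.0% and the lowest adjusted p of any gene was 0.36. At an unadjusted p under 0.05 in that test, 6 members were higher (all of the 7 but Podn), where 7.24% of all genes were, and 1 was lower (Kera), where 3.31% of all genes were. DESeq2, the tool the study's methods name, called 3 members higher (Dcn, Ogn and Prelp) and 0 lower at an adjusted p under 0.05, where it called 3.17% of all genes higher and 0.692% lower. The median log2 fold change was 0.96 over the 10 members and -0.04 over all genes tested. The smallest p that an exact permutation test (two-sided) can reach with 2 libraries per age is 0.333. The p-values of edgeR and DESeq2 combine the spread of each gene with a spread estimated across genes.

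**Figure D1:**
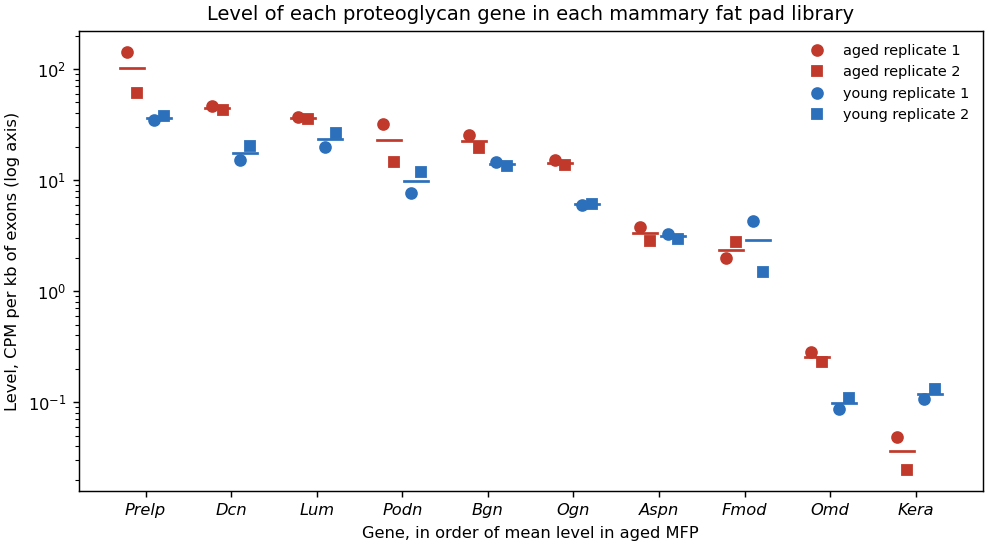
Level of each member in each of the 4 libraries, in CPM per kb of exons on a log axis, with a line at the mean of each age (n = 2) and members ordered by their mean in aged MFP. Both aged points lie above both young points for 7 members, the points interleave for Aspn and Fmod, and the aged points lie below for Kera.

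Compared per kb of exons, with the union of all annotated exons as the length, the members spanned a wide range. Levels of different genes compare only as far as that length matches the transcripts present, which was not measured. In aged MFP the mean level was highest for Prelp (102 CPM per kb), followed by Dcn (44.6), Lum (36.1), Podn (23.2), Bgn (22.4), Ogn (14.4), Aspn (3.31), Fmod (2.37), Omd (0.256) and Kera (0.0364). Podn and Bgn were the only neighbours in that order whose replicates overlapped, although Aspn and Fmod were separated by little, with the lower Aspn library at 2.81 and the higher Fmod library at 2.76 CPM per kb. In young MFP the order was Prelp (36.1 CPM per kb), Lum (23.3), Dcn (17.7), Bgn (14.0), Podn (9.78), Ogn (6.04), Aspn (3.12), Fmod (2.90), Kera (0.119) and Omd (0.0976). There the neighbours Lum and Dcn, Aspn and Fmod, and Kera and Omd overlapped. Within single libraries, Dcn stood above Lum in both aged libraries and below it in both young ones (15.2 against 19.9 and 20.2 against 26.7 CPM per kb). Omd likewise stood above Kera in both aged libraries and below it in both young ones, at few counts. The order of Dcn and Lum depends on the exon lengths used, 5838 bases for Dcn and 2448 for Lum. Without length scaling, Dcn counts exceeded Lum counts in every library, by 1.80 to 3.02 times.

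Class I holds decorin, biglycan and asporin. Decorin (Dcn, ENSMUSG00000019929, chr10:97479609-97518143, plus strand of GRCm38), which binds collagen fibrils and TGF-beta, was at 272 and 248 CPM in aged replicates 1 and 2 and at 89.0 and 118 CPM in young replicates 1 and 2. Both aged libraries lay well above both young ones. The log2 fold change was 1.33 (standard error 0.20, adjusted p = 0.36 with edgeR and 8.74e-05 with DESeq2), a fold of 2.52, and it was 1.14 without young replicate 1. Biglycan (Bgn, ENSMUSG00000031375, chrX:73483602-73495933, plus strand), close in sequence to decorin and also a ligand of toll-like receptors, was at 154 and 119 CPM in aged and 88.5 and 82.0 CPM in young MFP. Its groups were separate but nearer to each other, and its log2 fold change was 0.68 (standard error 0.18, adjusted p = 0.417 with edgeR and 0.137 with DESeq2). Asporin (Aspn, ENSMUSG00000021388, chr13:49544443-49567565, plus strand), which competes with decorin for collagen, was at 8.95 and 6.61 CPM in aged and 7.72 and 6.95 CPM in young MFP. The young libraries lay between the aged ones, and the log2 fold change, 0.09 (standard error 0.26, adjusted p = 0.901 with edgeR), turned to -0.16 without aged replicate 1 and to -0.09 when libraries were scaled by total counts only.

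Class II holds the keratan sulfate type members. Lumican (Lum, ENSMUSG00000036446, chr10:97565128-97572703, plus strand), needed for the regular fibrils of cornea and skin, was at 90.0 and 86.6 CPM in aged and 48.6 and 65.3 CPM in young MFP. The groups did not overlap, and the log2 fold change was 0.63 (standard error 0.19, adjusted p = 0.436 with edgeR and 0.231 with DESeq2), or 0.43 without young replicate 1. Prelp (ENSMUSG00000041577, chr1:133910304-133921414, minus strand), which links basement membrane heparan sulfate to collagen, was at 514 and 221 CPM in aged and 126 and 135 CPM in young MFP. Aged replicate 1 was far above the other 3 libraries, and aged replicate 2 was above both young ones. The log2 fold change of Prelp was 1.49 (standard error 0.45, adjusted p = 0.436 with edgeR and 0.0486 with DESeq2) and 0.75 without aged replicate 1. Fibromodulin (Fmod, ENSMUSG00000041559, chr1:134037254-134048277, plus strand), which shares a collagen binding region with lumican and guides fibril crosslinking, was at 6.57 and 9.13 CPM in aged and 14.2 and 4.95 CPM in young MFP. The young libraries held both the highest and the lowest value. Its log2 fold change was -0.29 (standard error 0.58, adjusted p = 0.846 with edgeR) and turned to 0.67 without young replicate 1, and the 4 libraries ranked by Fmod stood in the same order as by their summed B and T cell markers, whose part in this was not tested.

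The remaining class II members were rare. Osteomodulin (Omd, ENSMUSG00000048368, chr13:49582462-49592822, plus strand), best known from mineralizing tissue, had 52 and 46 counts in aged and 16 and 18 counts in young MFP. These correspond to 0.636 and 0.517 CPM against 0.195 and 0.244 CPM, with both aged libraries above both young ones. Its log2 fold change was 1.39 (standard error 0.38, adjusted p = 0.418 with edgeR and 0.309 with DESeq2). Keratocan (Kera, ENSMUSG00000019932, chr10:97606879-97613692, plus strand), a proteoglycan of the corneal stroma, had 9 and 5 counts in aged and 20 and 22 counts in young MFP, or 0.110 and 0.0561 CPM against 0.244 and 0.298 CPM. Kera was the only member with both aged libraries below both young ones, and its log2 fold change of -1.69 rests on these few counts (standard error 0.51, adjusted p = 0.439 with edgeR and 0.457 with DESeq2).

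Class III is represented by osteoglycin and class V by podocan. Osteoglycin (Ogn, ENSMUSG00000021390, chr13:49608046-49624501, plus strand), also called mimecan, was at 38.9 and 34.9 CPM in aged and 15.3 and 15.7 CPM in young MFP. Its replicates lay close together at each age (SD 2.85 CPM in aged and 0.234 CPM in young MFP, n = 2). The log2 fold change of Ogn was 1.25 (standard error 0.16, adjusted p = 0.36 with edgeR and 8.44e-07 with DESeq2), the smallest error among the members, and it stayed between 1.16 and 1.33 with each library left out in turn. Podocan (Podn, ENSMUSG00000028600, chr4:108014791-108096445, minus strand), a collagen binding member first found in kidney podocytes, was at 136 and 62.7 CPM in aged and 32.8 and 50.8 CPM in young MFP. Aged replicate 1 was again the highest library by far. The log2 fold change of Podn was 1.25 (standard error 0.46, adjusted p = 0.477 with edgeR and 0.177 with DESeq2). It was 0.57 without aged replicate 1 and 0.96 without young replicate 1.

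**Figure D2:**
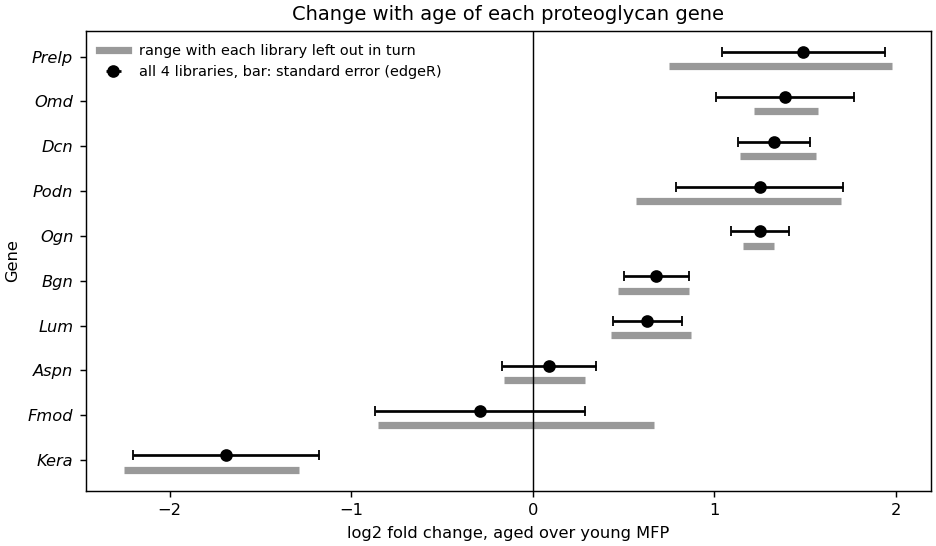
Log2 fold change of each member, aged over young MFP, from edgeR with its standard error (black, 4 libraries), above the range of the same value with each library left out in turn (grey). Ogn has the narrowest range (1.16 to 1.33), Prelp (0.75 to 1.98) and Podn (0.57 to 1.70) have wide ones, and Aspn and Fmod cross 0.

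Most members lie in 3 genomic clusters, and neighbours in a cluster did not all show similar differences. On chromosome 10, Dcn, Lum, Kera and a further family gene, Epyc, lie on the plus strand within 203 kb. There Dcn (log2 fold change 1.33) and Lum (0.63) were higher in aged libraries while Kera (-1.69) was lower, at few counts. Within single libraries, where the scaling between libraries plays no role, there were 3.02 and 2.87 Dcn counts per Lum count in aged and 1.83 and 1.80 in young MFP. The ratio was higher in both aged libraries and nearly the same within each age. Epyc, a cartilage member, had 15 and 33 counts in aged and 6 and 11 counts in young MFP (log2 fold change 1.32, standard error 0.63, adjusted p = 0.521 with edgeR). The noncoding 4930473O22Rik between Lum and Kera had 0 counts in every library.

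On chromosome 13, Ecm2, Aspn, Omd and Ogn follow each other on the plus strand within 120 kb. Omd (1.39) and Ogn (1.25) had similar log2 fold changes, although Ogn was more abundant by far, and Aspn beside them was at 0.09. There were 61.2 and 67.5 Ogn counts per Omd count in aged and 78.6 and 64.2 in young MFP, which overlap. There were 4.35 and 5.27 Ogn counts per Aspn count in aged and 1.99 and 2.25 in young MFP, with both aged libraries higher. Ecm2, a related matrix gene, was at 13.9 and 11.0 CPM in aged and 6.38 and 7.68 CPM in young MFP (log2 fold change 0.83, standard error 0.24, adjusted p = 0.431 with edgeR). All of Aspn, Omd and Ogn lie inside Cenpp, a centromere gene on the other strand, which had 46 to 83 counts per library and shares 7 exon bases with Aspn and 0 with Omd and Ogn.

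On chromosome 1, Prelp and Optc lie side by side on the minus strand and Fmod lies on the plus strand, within 151 kb. The log2 fold change was 1.49 for Prelp and -0.29 for Fmod, whose groups overlapped and whose value turned to 0.67 without young replicate 1. There were 78.2 and 24.2 Prelp counts per Fmod count in aged and 8.85 and 27.3 in young MFP, which overlap. Optc, an eye proteoglycan, had 59 to 86 counts per library and overlapped between the ages (log2 fold change 0.18, adjusted p = 0.841 with edgeR). Between Prelp and Fmod, Gm1627 had 3 to 21 counts per library and the pseudogene Gm18970 had 0. Gm15851 is antisense to Prelp with 350 shared exon bases and had 0 to 15 counts per library against 9968 to 42010 for Prelp. The strand setting of the counting is not given in the sources used here, so reads of a gene and its antisense partner may not be separated, though the partner counts were small beside those of the abundant members. Podn overlaps Scp2, a sterol carrier gene on the same strand with 14238 to 22418 counts per library, the small RNA gene Gm23354 (11 to 15 counts) and Mir6397 (0 counts), with 0 shared exon bases in each case.

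**Figure D3:**
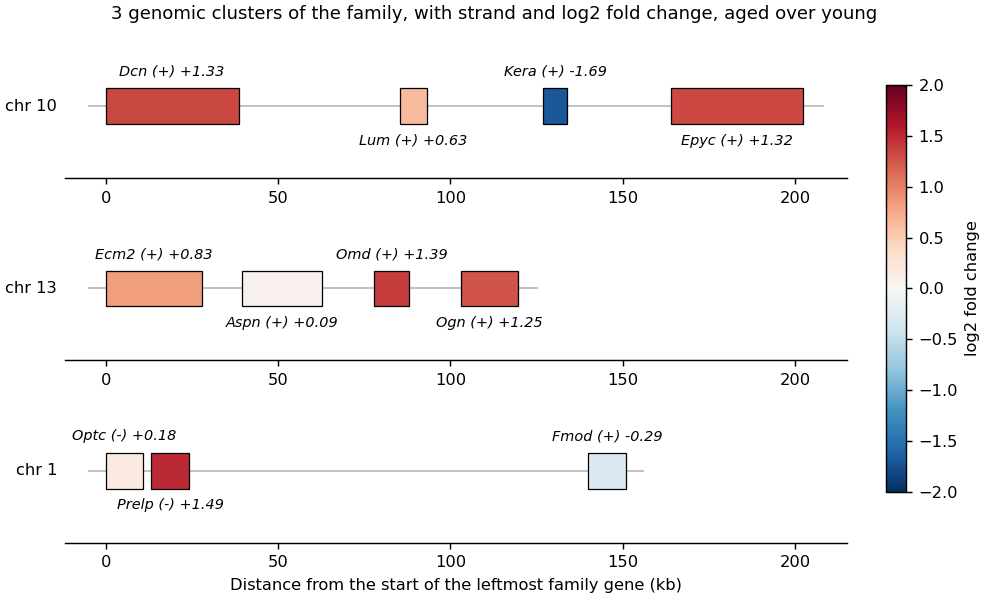
The 3 clusters drawn to scale as distance in kb from the start of the leftmost family gene, with each gene's strand and its log2 fold change, aged over young MFP, as a number and a colour. On chromosome 10, Dcn (1.33) was higher in aged MFP and Kera (-1.69) lower, at 5 to 22 counts per library. Aspn (0.09) is next to Omd (1.39) on chromosome 13.

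The promoters of the clustered members were compared because neighbours of 1 cluster differed. The RefSeq promoter table (GRCm38.p6) held 8 of the 10 members, all but Dcn and Lum. For the chromosome 13 and chromosome 1 members, the 200 bases before the start given by RefSeq are shown 5′ to 3′ on the strand of the gene, with matches to 5 searched motifs in capitals. Aspn is shown from chr13:49544243-49544442 (plus strand), Omd from chr13:49582262-49582461 (plus), Ogn from chr13:49607815-49608014 (plus), Prelp from chr1:133921402-133921601 (minus) and Fmod from chr1:134037054-134037253 (plus).
Aspn: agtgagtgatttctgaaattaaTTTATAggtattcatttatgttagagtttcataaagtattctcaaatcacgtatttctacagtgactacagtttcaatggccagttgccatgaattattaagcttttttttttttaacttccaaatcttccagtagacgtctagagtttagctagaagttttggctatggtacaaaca
Omd: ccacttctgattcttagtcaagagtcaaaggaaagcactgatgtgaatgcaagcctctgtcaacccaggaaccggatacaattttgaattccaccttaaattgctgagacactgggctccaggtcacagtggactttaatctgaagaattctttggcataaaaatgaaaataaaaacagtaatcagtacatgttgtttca
Ogn: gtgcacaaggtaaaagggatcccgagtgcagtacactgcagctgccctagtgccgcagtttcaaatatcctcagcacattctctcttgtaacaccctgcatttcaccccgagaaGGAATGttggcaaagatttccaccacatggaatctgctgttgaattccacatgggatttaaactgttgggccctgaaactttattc
Prelp: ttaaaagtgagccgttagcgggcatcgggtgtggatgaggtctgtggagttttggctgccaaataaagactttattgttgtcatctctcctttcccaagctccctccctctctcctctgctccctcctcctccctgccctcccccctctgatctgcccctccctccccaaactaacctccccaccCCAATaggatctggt
Fmod: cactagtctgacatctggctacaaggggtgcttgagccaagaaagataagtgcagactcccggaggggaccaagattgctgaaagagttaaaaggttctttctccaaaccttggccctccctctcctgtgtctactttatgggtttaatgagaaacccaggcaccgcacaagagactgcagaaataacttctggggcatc

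The capitals mark TATAAA read on the other strand at -178 in Aspn, GGAATG at -86 in Ogn and CCAAT at -15 in Prelp. Positions are counted from that start to the first base of the match. These are matches of letters, and whether they act as promoter elements was not tested. Omd and Fmod held no match in these 200 bases. Over 250 bases on both strands, TATAAA occurred in Aspn and Ogn and in 12.4% of all 32851 promoters of the same length. CCAAT occurred in Aspn, Kera and Prelp and in 33.8% of all promoters, and GGGCGG in Bgn and Podn and in 32.7%. GGAATG, the core read by TEAD factors, occurred in Ogn and in 12.6%. TGANTCA, read by AP-1, occurred in none of the 8 members and in 6.75% of all promoters. Omd and Ogn, which had similar log2 fold changes, shared none of the 5 motifs in this window. The GC content of the 250 bases was 30.0% in Aspn, 38.4% in Omd, 42.0% in Ogn, 42.4% in Kera and 51.2% in Fmod. These values lie below the median of 52.4% over all promoters. Prelp had 55.6%, Bgn 64.4% and the 2 listed Podn promoters 78.0% and 64.0%.

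Summed over the 10 members, the level was 1221 and 789 CPM in aged and 423 and 479 CPM in young MFP, or 0.119% and 0.0714% of all counts against 0.0446% and 0.0514%. Both aged libraries were above both young ones. The order of the 4 libraries was the same as by the summed adipocyte markers given above. None of the other marker lists gave that order. The fibroblast markers summed to 433 and 356 CPM in aged and 449 and 379 CPM in young MFP. The part of a change in cell make-up in the order of the summed members was not tested. Within the pool, counted per kb of exons, Prelp made up 46.8% and 31.8% in aged and 32.9% and 31.0% in young MFP, so the groups overlapped. Dcn (15.3% and 22.1% against 14.4% and 16.8%), Ogn, Podn and Fmod also overlapped. The share of Lum was lower in both aged libraries, at 12.1% and 18.4% against 18.8% and 22.2%. Bgn was at 8.33% and 10.1% in aged against 13.7% and 11.2% in young MFP, and Aspn at 1.25% and 1.46% against 3.10% and 2.45%, both with no overlap. At few counts, the share of Kera was lower in both aged libraries (0.0159% and 0.0128% against 0.101% and 0.109%). That of Omd was higher in both, at 0.0931% and 0.119% against 0.0819% and 0.0901%. Without length scaling, the mean difference (aged minus young) went from -5.23 to -3.40 percentage points for Lum. It went from -3.21 to -5.16 for Bgn and from -1.42 to -0.853 for Aspn. These shares carry no test, and they were computed on 2 libraries per age.

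Of 13 collagens of fibrils and their surface, which these proteoglycans bind, 0 were called by edgeR, 8 were lower in both aged than in both young libraries, 0 were higher and the rest overlapped, with a median log2 fold change of -0.81. DESeq2 called 5 of them lower, which were Col1a1, Col1a2, Col3a1, Col5a3 and Col11a1. Over all genes tested, 22.8% were lower and 23.3% higher in aged MFP without overlap. The counts without overlap in this list and the lists below are to be read beside those shares. Col1a1, the main chain of type I collagen, was at 503 and 350 CPM in aged and 1213 and 1368 CPM in young MFP (log2 fold change -1.60, standard error 0.27, adjusted p = 0.36 with edgeR and 1.99e-05 with DESeq2). Col11a1, a chain that nucleates fibrils, was at 5.28 and 5.33 CPM in aged and 9.45 and 22.8 CPM in young MFP. Its log2 fold change was -1.60 (adjusted p = 0.436 with edgeR and 0.0498, near the threshold, with DESeq2). Col6a1, Col6a2 and Col6a3, singled out after their values were seen, were at 0.09, 0.05 and -0.09 on the log2 scale, with overlap.

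Set against Col1a1, Col1a2 and Col3a1 in the same library and per kb of exons, the summed level of the 10 members was 1.40 and 1.26 times that of the collagens in aged and 0.251 and 0.248 times in young MFP. The ratio was higher in both aged libraries, by 2.42 on the log2 scale, and its replicates lay close together at each age (1.33 ± 0.0959 and 0.249 ± 0.00229, SD, n = 2). As this ratio was formed from genes known to differ, it is a description and carries no test. Against 8 fibroblast markers in place of the collagens, the ratio was 1.95 and 1.41 in aged and 0.696 and 1.02 in young MFP, again without overlap. The fibroblast markers themselves summed to 433 and 356 CPM in aged and 449 and 379 CPM in young MFP, with 4 of 8 higher and 1 lower without overlap, 0 called by edgeR, 1 called higher by DESeq2 and a median log2 fold change of 0.21. The one called was Clec3b, at 44.2 and 38.5 CPM in aged and 18.6 and 18.9 CPM in young MFP (log2 fold change 1.14, adjusted p = 2.22e-05 with DESeq2 and 0.36 with edgeR). The 1 lower without overlap was Dpp4, at 7.33 and 10.7 CPM in aged and 49.0 and 13.2 CPM in young MFP (log2 fold change -1.79, adjusted p = 0.13 with DESeq2 and 0.488 with edgeR). Pi16 overlapped, at 19.4 and 17.3 CPM in aged and 12.1 and 68.5 CPM in young MFP (log2 fold change -1.14). Young replicate 1 held 171 CPM of Thy1 and 49.0 CPM of Dpp4 from that list, which T cells also express, against 25.4 to 33.4 and 7.33 to 13.2 CPM in the other 3 libraries.

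**Figure D4:**
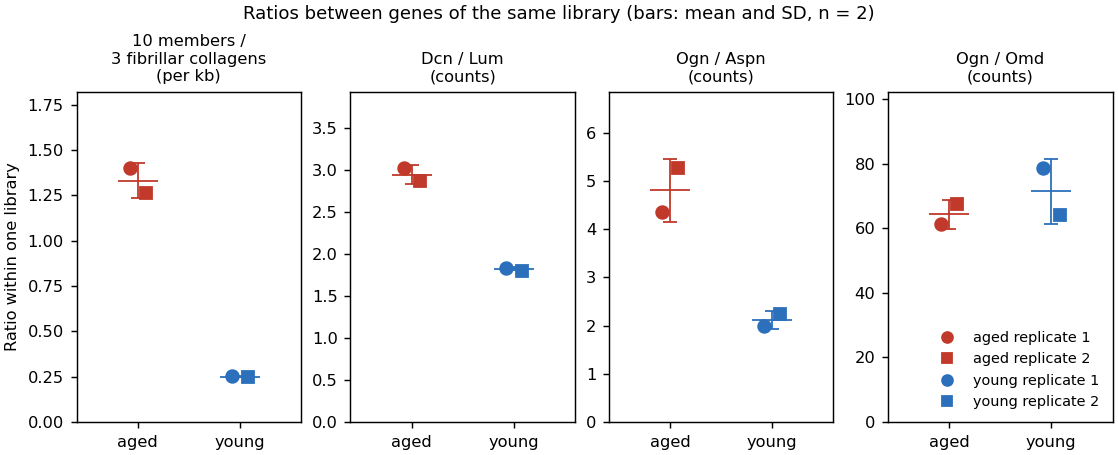
Ratios formed within single libraries, from left to right the 10 members over Col1a1, Col1a2 and Col3a1 per kb, and Dcn over Lum, Ogn over Aspn and Ogn over Omd in counts; points are libraries, bars mean and SD (n = 2), and each axis starts at 0. The first 3 ratios are higher in both aged libraries (1.40 and 1.26 against 0.251 and 0.248 for the first), and Ogn over Omd overlaps.

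Of 7 further family genes, 6 passed the filter, 4 were higher in both aged libraries and 0 lower, 0 were called by edgeR or DESeq2, and their median log2 fold change was 0.59. Tsku, a secreted inhibitor of several growth factors, had 1428 and 3404 counts in aged and 1225 and 962 counts in young MFP (log2 fold change 0.99, adjusted p = 0.503 with edgeR). Chad did not pass the filter, with 5 to 23 counts per library.

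The enzymes that build the sulfated chains showed no direction shared by all 3 lists. Of 7 enzymes of the linker that joins chain and core protein, 6 had a negative log2 fold change. In that list 1 was higher and 3 were lower without overlap (median -0.31). Xylt1, which starts the linker, was at 13.6 and 14.5 CPM in aged and 33.8 and 12.6 CPM in young MFP, and B4galt7, the next enzyme, at 12.1 and 14.2 against 22.7 and 12.6 CPM. In both, young replicate 1 alone was high. Of 16 chondroitin and dermatan sulfate enzymes, 10 had a positive and 6 a negative log2 fold change, and 6 were higher and 1 was lower without overlap (median 0.13). Chst3, a chondroitin sulfotransferase, was at 75.0 CPM in young replicate 1 and 2.32 to 6.61 CPM in the other 3 libraries, and Chst13, another, at 1.28 and 1.59 CPM in aged and 0.976 and 0.271 CPM in young MFP. Of 5 keratan sulfate enzymes tested, out of 6 listed, 2 had a positive and 3 a negative log2 fold change. In that list 0 were higher and 1 was lower without overlap (median -0.05). That one was Chst2, a sulfotransferase also used by lymph node vessels, at 5.71 and 5.32 CPM in aged and 26.2 and 13.5 CPM in young MFP (log2 fold change -1.85, standard error 0.39, adjusted p = 0.385 with edgeR and 0.00125 with DESeq2). B3gnt7, which extends the chain, was at 5.59 and 9.31 CPM in aged and 7.08 and 21.8 CPM in young MFP. None of the enzymes of these 3 lists was called by edgeR, and Chst2 was the only one called by DESeq2.

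Of 10 genes that process or cleave the members, which are proteases and the helper protein Pcolce, 5 were higher and 1 was lower without overlap (median 0.49). The shares over all genes tested were 23.3% higher and 22.8% lower. Mmp13, a collagenase, was at 0.966 and 1.40 CPM in aged and 0.134 and 0.461 CPM in young MFP (log2 fold change 1.99, adjusted p = 0.469 with edgeR and 0.186 with DESeq2). Adamts4, which cleaves several proteoglycans, was at 1.58 and 0.910 CPM in aged and 3.96 and 6.11 CPM in young MFP (log2 fold change -2.02, adjusted p = 0.398 with edgeR and 0.00223 with DESeq2). Mmp3, named because DESeq2 called it, was at 18.1 and 20.6 CPM in aged and 4.05 and 7.49 CPM in young MFP (log2 fold change 1.75, adjusted p = 0.385 with edgeR and 0.00154 with DESeq2). Of 12 growth factors and receptors that bind members of the family, 6 were higher and 1 was lower without overlap (median 0.31), with 0 called by either tool. Tgfb2, a ligand of decorin and biglycan, was at 14.0 and 13.4 CPM in aged and 5.01 and 9.68 CPM in young MFP, and Egfr, a receptor bound by decorin, at 144 and 124 against 56.8 and 102 CPM.

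**Figure D5:**
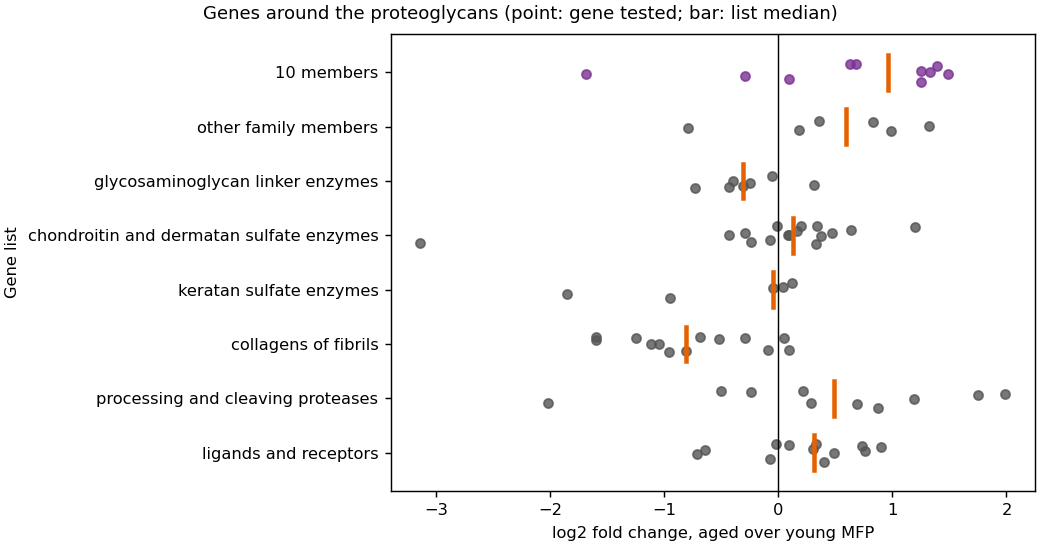
Log2 fold change, aged over young MFP, of each tested gene (points, spread vertically only for legibility) in the 10 members and in 7 lists of related genes, with a bar at the list's median. The medians run from -0.81 for the collagens of fibrils to 0.96 for the 10 members.

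Markers of other cell types were read in the same libraries. Of 8 tendon and cartilage markers, Acan, Matn3 and Tnmd were at 0 to 11 counts per library and not tested. Of the other 5, 3 were higher without overlap (median 0.67), among them Scx (1.79 and 1.72 CPM in aged, 0.586 and 0.772 CPM in young MFP) and Mkx (1.21 and 1.08 against 0.146 and 0.461 CPM), transcription factors of tendon cells. The list summed to 61.9 and 49.9 CPM in aged and 20.1 and 54.1 CPM in young MFP, most of it from Sox9, which epithelium also expresses. Epidermal markers summed to 1.40 to 2.53 CPM per library, with Flg and Krt2 at 0 counts in all 4. Smooth muscle and pericyte markers summed to 1272 and 1709 CPM in aged and 688 and 955 CPM in young MFP (median 0.33). Much of that difference came from Des, which skeletal muscle also expresses, at 507 and 752 CPM in aged and 122 and 132 CPM in young MFP. Acta2, Myh11, Cnn1 and Cspg4 overlapped. Des was the only marker of this list called by DESeq2 (log2 fold change 2.31, adjusted p = 6.06e-11 with DESeq2 and 0.36 with edgeR). The median log2 fold change was 0.25 for epithelium, 0.17 for endothelium, 0.54 for macrophages and 0.48 for adipocytes. It was 1.10 for epidermis, 1.99 for skeletal muscle and -3.28 for B and T cells. In each of these lists, 0 genes were called by edgeR. The B and T cell value rests on young replicate 1. Those markers summed to 6.04 and 51.5 CPM in aged and 498 and 3.28 CPM in young MFP, and all 6 overlapped. DESeq2 called 5 of the 8 skeletal muscle markers, 1 adipocyte marker (Lep), 1 epidermal marker (Ivl) and 1 tendon marker (Scx) higher in aged MFP, and 0 of the epithelial, endothelial, macrophage or B and T cell markers. Whether muscle, tendon or connective tissue taken with the pad contributed to the members' higher levels was not tested.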

How the data were processed

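Total RNA of mouse MFP was depleted of ribosomal RNA and made into directional libraries. The values are raw read counts for each gene and each sample, deposited by the authors without normalization or pooling. The submitters' processing notes name featureCounts, R 3.6.1 and the builds GRCm38 and hg38; the aligner, annotation and strand setting are not given in the sources used here. Groups and replicate numbers come from the sample labels. The labels call the replicates biological without naming the mice. The p-values rest on the spread between these samples, combined with a spread estimated across genes.

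Low counts were filtered with filterByExpr at its defaults, and the rest were scaled by TMM and tested with edgeR 4.0.16 (glmQLFit and glmQLFTest, age as the only term, R 4.3.3, limma 3.58.1) at a Benjamini-Hochberg adjusted p of 0.05 over 22485 genes. The standard error is the log2 fold change over the root of its F value. DESeq2 1.42.0 was the alternative test, beside other scalings, filters, a replicate block and leaving out each sample. In counts without overlap, both aged samples lie on 1 side of both young samples. Exon lengths (union of exons) and coordinates were read from GENCODE M21 (GRCm38), where 55227 of 55487 gene identifiers are listed, and promoters from RefSeq on GRCm38.p6. The edgeR and DESeq2 code was tested on simulated counts. Counts carry no molecular identifiers, so the floor of 3 counts covers counting error only.

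The members and gene lists were chosen with earlier results of these data known. Named are the 10 members, the genes that overlap a member or lie between members of a cluster, and from each list the 2 tested genes with the largest absolute log2 fold change, where those bear on a member. Col1a2, Col3a1, Col5a3, Col6a1, Col6a2, Col6a3, Mmp3, Clec3b, Pi16, Ecm2, Optc, Chad, Sox9 and the untested or absent markers were named after their values were seen.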

Additional observations from a re-analysis of the deposited data

How the results depend on the processing

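No setting gave a gene or a member passing edgeR's adjusted p of 0.05, whereas DESeq2 called 865 genes and 3 members. Depth limits the values of Kera and Omd. The median log2 fold change of the 10 members was 0.79 with total counts only, a scaling that moved the median of all genes from -0.04 to -0.22. It was 1.25 with at least 10 counts in every sample, where Kera drops out by construction, and 0.58 to 1.09 with each library left out, lowest without aged replicate 1. Aspn turned to -0.09 with total counts only and ranged from -0.16 to 0.29 with libraries left out, and Fmod from -0.85 to 0.67. The pool over collagens (2.42 on the log2 scale) became 0.98 over fibroblast markers and ranged from 2.34 to 2.49 with libraries left out. The direction of the other 8 members held under every alternative run. Same-numbered samples did not deviate together (correlation across genes -0.48), so the numbers were not taken to pair them. With 2 samples per age, this negative value means that opposite-numbered samples tended to deviate together. With the replicate block, 0 genes were called and the members' median was 0.92. A crossed replicate block, which pairs opposite-numbered samples and was chosen after seeing the data, also called 0 genes. Where a library was left out, the lone sample of its age was assumed to vary like the other age.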
